A study of Homo sapiens with 7 samples.

Results

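The comparison described here sets the 2 control groups of a METTL14 knockdown experiment against each other, in β-like cells in which no shRNA against METTL14 was induced. METTL14 belongs to the methyltransferase complex behind N6-methyladenosine (m6A), a mark of mRNA. The members were chosen by their labels: 4 of the 7 libraries of the series, 2 of iKD2 Dox- (replicates b and c) and 2 of iSCR Dox+ (replicates a and b), described across the 4239 of 22926 tested genes with a mean of 50 CPM or more over those 4 libraries (CPM are counts adjusted for library depth). All cells were derived from H1, an established human embryonic stem cell line, were differentiated in vitro to stage 6 and were sorted with a fluorescent zinc probe as insulin-expressing cells. In iKD2, an shRNA against METTL14 stands under the control of doxycycline (Dox), which this group did not receive. In iSCR, a non-targeting scramble shRNA stands under the same control, and Dox was given, so that this shRNA was induced. Both lines were made by lentiviral transduction and puromycin selection, and whether either is a single clone is not given in the sources used here. Line, Dox and scramble shRNA differ together between these groups, and their parts in any difference below cannot be told apart. The remaining 3 libraries, iKD2 Dox+ a, b and c, carry the iKD2 construct with Dox and are given beside the controls as levels only.

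Pancreatic β cells make insulin as a precursor, cut it with prohormone convertases in dense-core granules and store it there with zinc, which the transporter SLC30A8 brings in. Cells made from pluripotent stem cells resemble fetal rather than adult β cells, often hold glucagon or somatostatin mRNA beside insulin, and arise with enterochromaffin-type cells that make serotonin. Doxycycline is a tetracycline, and tetracyclines are known to act on mitochondrial translation, so lists for mitochondrial and stress genes are given beside those for endocrine genes.

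Estimated counts summed to 20639156 and 18070676 in the iKD2 Dox- libraries (b, c) and to 15405881 and 14875429 in those of iSCR Dox+ (a, b). Genes with at least 1 count numbered 23747, 23054, 19652 and 21256 in the same order, so that the iSCR Dox+ libraries were shallower and held fewer detected genes. Detection did not follow depth throughout. In iKD2 Dox+ (a, b, c) 20252, 22405 and 23367 genes were detected from 17097600, 15919386 and 17126315 counts. The labels name separate replicates and the study calls them independent biological samples, but p-values measure only the spread between these libraries. METTL14 (ENSG00000145388, chromosome 4, 118685368 to 118715433), the target of the shRNA, lay under the 50 CPM line, at 39.4 and 22.6 CPM in iKD2 Dox- and 36.1 and 32.2 CPM in iSCR Dox+. The log2 fold change of iKD2 Dox- over iSCR Dox+ was -0.14 (SE 0.69, 95% interval -1.57 to 1.30), and the groups overlapped. Among the iKD2 Dox+ libraries it stood at 18.7, 16.3 and 49.1 CPM, the last in the library labelled iKD2 Dox+ c, which goes against its label and is included wherever iKD2 Dox+ levels are given.

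No gene at 50 CPM or more passed the adjusted threshold between the controls, within limits that were wide for most genes. These 4239 genes were 18.5% of the genes tested and held 78.0% of the counts. They included 4011 protein-coding genes. At an adjusted p under 0.05 (edgeR quasi-likelihood test, Benjamini-Hochberg over all genes tested), 0 of them were called (0% of those at this level, lowest adjusted p 0.413). At an unadjusted p under 0.05 there were 282 (6.65%), of which 122 (2.88%) were higher and 160 (3.77%) lower in iKD2 Dox-. The study counted genes at an unadjusted p under 0.05 that also differed by more than 1.5-fold, which left 267 (6.3%). The numbers at an adjusted p were 66 with DESeq2 and 2 with limma voom. Which iSCR Dox+ library stood for its group mattered most: with iSCR Dox+ a alone the unadjusted count was 648 and the adjusted count 94, and with iSCR Dox+ b alone they were 354 and 19. With iKD2 Dox- b alone they were 188 and 3, and with iKD2 Dox- c alone 196 and 7.

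Differences were mostly small. The median log2 fold change was -0.05, the middle 50 percent of genes lay between -0.31 and 0.22, and 154 genes (3.63%) differed by more than 2-fold. For 1663 genes (39.2%) the 95% interval of the fold change lay wholly within 2-fold in either direction, and for the others a difference of that size was not excluded at this depth. At the 50 CPM line itself, TECPR1 had a mean of 49.99 CPM and was left out, and AP3M1 had 50.02 CPM and was included.

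How far the groups differed depended on the level of a gene. Between 50 and 100 CPM (2358 genes) the robust SD of the log2 ratio was 0.524 between the iKD2 Dox- libraries and 0.806 between the iSCR Dox+ libraries, while that of the difference between group means was 0.485. Replicate ratios of this size would alone give group means a spread of 0.481. From 100 to 200 CPM (1202 genes) these last values were 0.357 and 0.361, and from 200 to 400 CPM (464 genes) 0.271 and 0.281. Over genes up to 400 CPM the groups thus differed by about as much as their own replicates did. Among the 136 genes from 400 to 800 CPM the spread between group means was 0.254 against 0.197 from the replicates, and among the 79 genes at 800 CPM or more it was 0.261 against 0.175. Intervals narrowed along the same scale, and the share of genes with an interval within 2-fold rose from 15.8% in the lowest class to 96.2% in the highest. The highest class includes copies of a ribosomal RNA with identical values, which count repeatedly in its spreads and in this share. Values without these copies were not computed.

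**Figure D1:**
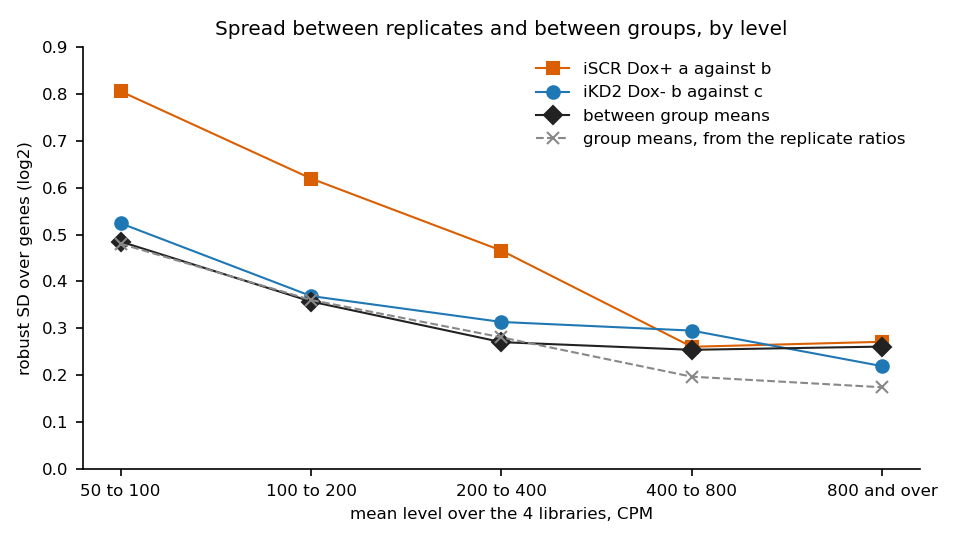
Robust SD over genes (log2) on the vertical axis, by class of mean CPM over the 4 libraries, for the ratio of the replicates in each group, for the difference between group means, and for the spread of group means that the replicate ratios alone give. The solid black and dashed grey lines run together up to 400 CPM and part above it, at 0.261 against 0.175 for genes at 800 CPM or more. That class includes copies of a ribosomal RNA with identical values.

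**Figure D2:**
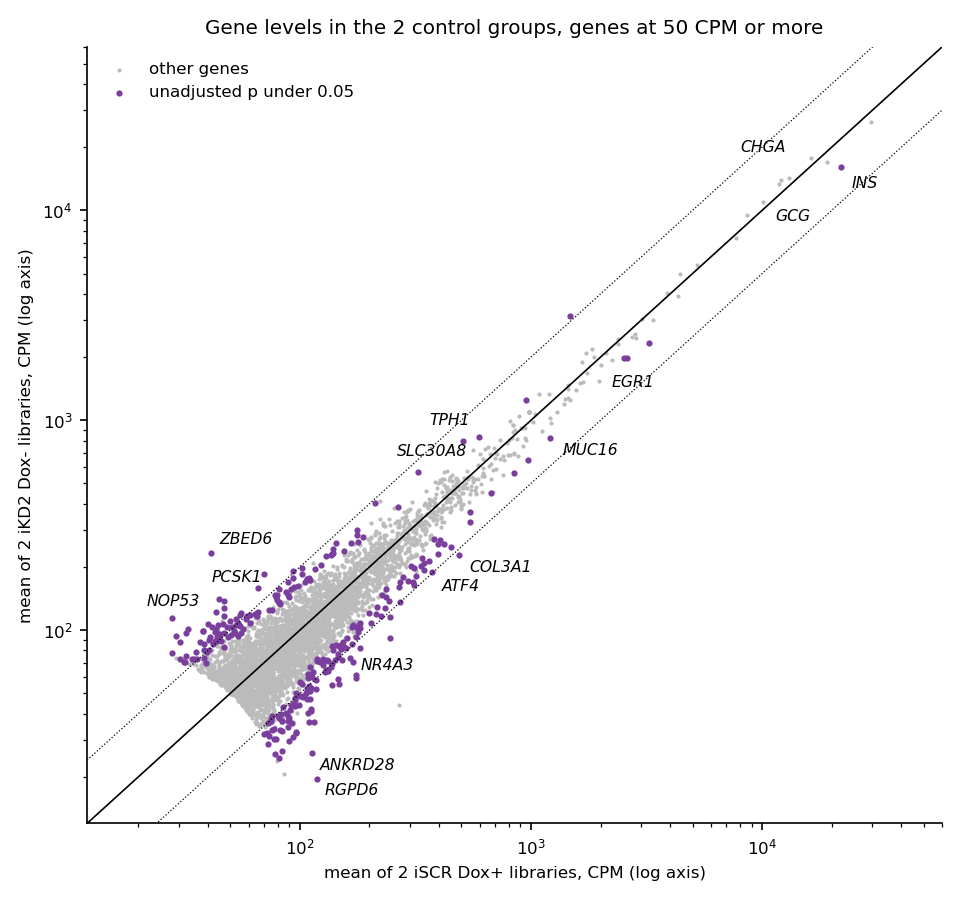
Mean CPM of the iKD2 Dox- libraries (n = 2) against that of the iSCR Dox+ libraries (n = 2) on log axes, 1 point for each of 4239 genes, with the line of equal level and dotted lines at 2-fold. Genes at an unadjusted p under 0.05 (282, purple) lie at the edges of the cloud at low levels and close to the line at high levels, and 0 genes passed the adjusted threshold.

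The most abundant genes gave the most precise values. Of the 79 genes at 800 CPM or more, 8 had an unadjusted p under 0.05 (10.1%). Lower in iKD2 Dox- were INS, MT-ND1, EGR1, MUC16, EEF1A1 and KRT8. Higher were MAP1B and ENSG00000276781, an ID with no symbol in the name table used. Several of the 79 entries were copies of a single ribosomal RNA with the same values in every library. These were 1161 and 1022 CPM in iKD2 Dox- and 1188 and 767 CPM in iSCR Dox+. A pair of microRNA genes also shared its values. The 79 entries are thus not all separate measurements, and the share of 10.1% counts some of them repeatedly. EEF1A1, which encodes a translation elongation factor, was at 2296 and 2361 CPM in iKD2 Dox- and 3561 and 2892 CPM in iSCR Dox+. The groups did not overlap (log2 fold change -0.47, SE 0.15). MAP1B, a microtubule-associated protein of neurons and endocrine cells, was at 1477 and 1026 CPM against 901 and 1005 CPM (0.39, SE 0.19), so that the nearest libraries of the groups were 21.4 CPM apart. ENSG00000276781 was at 3359 and 2924 CPM against 959 and 1987 CPM, and its counts were not whole, which marks reads shared with other genes. This was common: counts were whole in every library for 1683 of the 4239 genes, and those of INS, MT-ND1, EEF1A1 and KRT8 were not.

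Among peptide hormones, INS was lower in iKD2 Dox- without overlap and had an unadjusted p under 0.05, which none of the others had. INS (ENSG00000254647, chromosome 11, 2159779 to 2161341), the insulin gene, stood at 17393 and 14630 CPM in iKD2 Dox- and 22298 and 21507 CPM in iSCR Dox+. Neither iKD2 Dox- library reached the level of either iSCR Dox+ library. The log2 fold change was -0.45 (SE 0.12, 95% interval -0.69 to -0.21), with an edgeR adjusted p of 0.614. In iKD2 Dox+, INS was at 11625, 13581 and 11365 CPM, lower than in either control. Over 17 alternatives its difference stayed between -0.58 and -0.33, and its adjusted p was under 0.05 in 4 of them.

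GCG, which encodes glucagon, was less abundant than INS in all 4 libraries, at 12846 and 9059 CPM against 10704 and 9412 CPM. Its libraries overlapped (0.12, SE 0.34). SST (somatostatin) was at 2281 and 2655 CPM against 3705 and 1988 CPM (-0.21, SE 0.39), with the iSCR Dox+ libraries on both sides of the others. PPY (pancreatic polypeptide) stood at 64.5 and 39.8 against 44.1 and 70.6 CPM. PYY (peptide YY) was higher in both iKD2 Dox- libraries, at 192 and 116 against 113 and 106 CPM, with an edgeR adjusted p of 0.826. Of the 16 hormone genes listed, these 5 reached 50 CPM, with 2 higher and 3 lower. In bulk samples such as these, fewer cells of a type and less RNA per cell cannot be told apart.

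Among granins and prohormone-processing genes, PCSK1 alone had an unadjusted p under 0.05. Of 12 members at 50 CPM or more, 8 were higher and 4 lower in iKD2 Dox- (median 0.08, against -0.05 over all genes at this level). CHGA, the chromogranin of dense-core granules, was at 17941 and 17404 CPM against 15738 and 16900 CPM (0.11, SE 0.11, 95% interval -0.11 to 0.34), the tightest interval of the list. PCSK1, the convertase that begins proinsulin cleavage, was at 166 and 115 CPM in iKD2 Dox- and at 49.4 and 40.3 CPM in iSCR Dox+. Its lowest iKD2 Dox- library was thus over the highest iSCR Dox+ library (log2 fold change 1.65, SE 0.40, edgeR adjusted p = 0.527). The iKD2 Dox+ libraries were at 50.4, 94.8 and 72.7 CPM. PCSK2, the convertase that makes glucagon from its precursor in α cells, was at 451 and 511 against 453 and 477 CPM (0.05, SE 0.24).

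Genes of β-cell function gave a median of 0.14 over 13 members, with 9 higher and 4 lower. SLC30A8, the granule zinc transporter and thus part of what a zinc probe reads, was at 700 and 427 CPM in iKD2 Dox- against 338 and 311 CPM in iSCR Dox+ (0.80, SE 0.26, edgeR adjusted p = 0.826). All other members were over an unadjusted p of 0.05. ABCC8, a subunit of the ATP-sensitive potassium channel, was at 442 and 393 against 355 and 379 CPM. Under the 50 CPM line, IAPP (islet amyloid polypeptide) ranged from 10.2 to 19.9 CPM and G6PC2, a glucose-6-phosphatase of mature β cells, from 0 to 5.45 CPM over the 4 libraries, so that these markers of β cells were low in both groups.

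Islet transcription factors were spread around 0, with 7 of 15 higher and 8 lower (median -0.03). RFX6, needed for endocrine differentiation, was at 169 and 126 CPM against 75.5 and 80.0 CPM (0.92, SE 0.33, edgeR adjusted p = 0.826). The iSCR Dox+ libraries were close together and both below iKD2 Dox-. PDX1, NKX6-1, NEUROD1, PAX6 and ISL1, which specify or keep β-cell identity, had log2 fold changes of -0.25, -0.29, -0.04, -0.07 and -0.03, and in each the libraries of the groups overlapped. For 10 of the 15 genes the 95% interval lay within 2-fold. Foregut factors (8 members, median 0.06) gave 0 genes at an unadjusted p under 0.05.

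**Figure D3:**
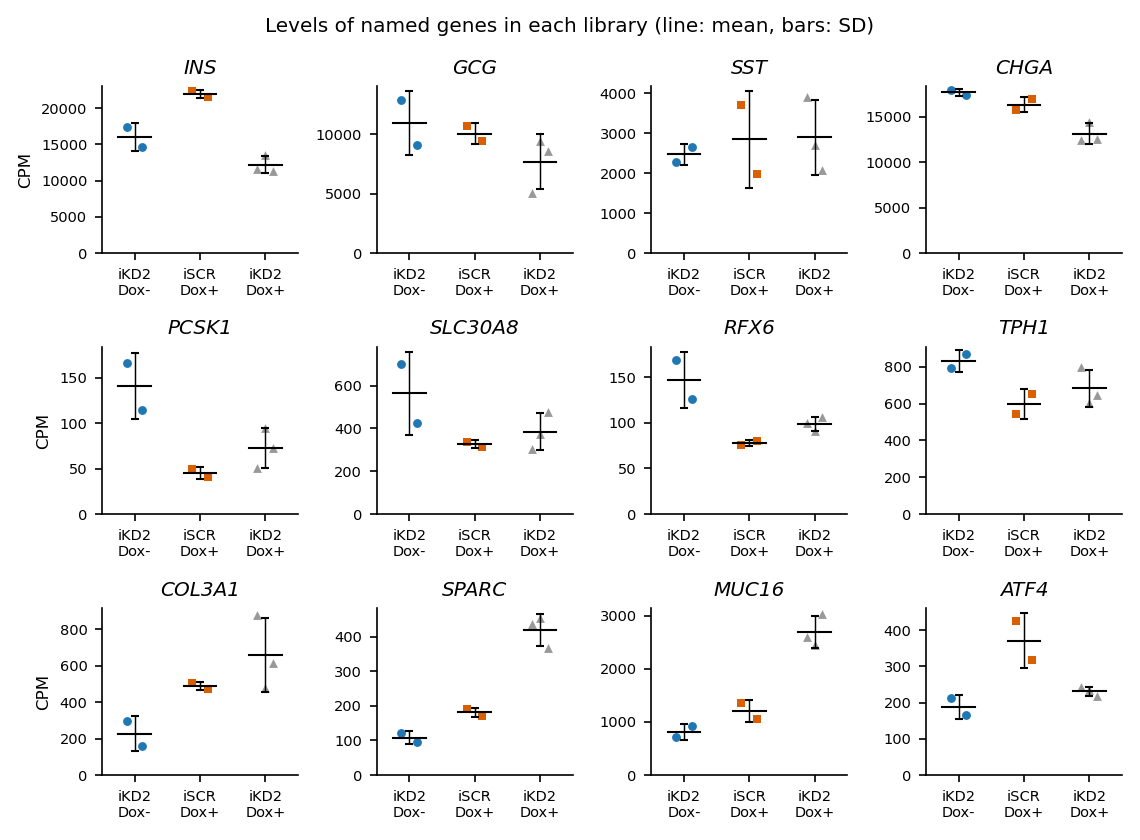
CPM of 12 genes in each library on linear axes from 0, with the mean (line) and SD (bars) for iKD2 Dox- (n = 2), iSCR Dox+ (n = 2) and iKD2 Dox+ (n = 3). PCSK1, SLC30A8, RFX6 and TPH1 are higher in both iKD2 Dox- libraries than in both iSCR Dox+ libraries, INS, COL3A1, SPARC, MUC16 and ATF4 are lower, and GCG and SST overlap.

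Markers of enterochromaffin-type cells stood higher in iKD2 Dox-. Of 10 listed genes 6 reached 50 CPM, with 5 higher and 1 lower and a median of 0.48. Without overlap between groups, 4 were higher and 1 was lower. Of all genes at this level, 15.3% were higher and 19.8% lower without overlap. Without iSCR Dox+ a the median was 0.21. TPH1, the enzyme that starts serotonin synthesis, was at 791 and 872 CPM against 541 and 654 CPM (0.48, SE 0.20, edgeR adjusted p = 0.826). FEV, a transcription factor of serotonin-making cells, was at 233 and 222 against 93.0 and 218 CPM. CBLN1, a secreted synaptic organizer, was at 105 and 137 against 41.5 and 45.5 CPM (1.48, SE 0.43, edgeR adjusted p = 0.711). DDC, the next enzyme of serotonin synthesis, did not follow them (254 and 254 against 278 and 255 CPM). Summed over the list, the level was 1676 and 1821 CPM in iKD2 Dox- and 1179 and 1399 CPM in iSCR Dox+, and TAC1, one of its markers, was at 0 in all 4 libraries. The part of such cells in the other differences was not tested.

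Of the 13 exocytosis genes at this level, 8 were higher (median 0.18, and 0.03 without iKD2 Dox- b). SV2A, a synaptic-vesicle glycoprotein, was at 72.5 and 88.0 against 29.2 and 48.1 CPM (1.05, SE 0.49, edgeR adjusted p = 0.826). α-cell markers gave a median of -0.14 over 8 genes, and IRX2, a transcription factor of α cells, was at 233 and 280 against 472 and 316 CPM (-0.62, SE 0.28, edgeR adjusted p = 0.826).

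Listed mesenchymal and amnion markers were on the lower side in iKD2 Dox-. Of 15 listed mesenchymal markers 6 reached 50 CPM, all with lower fitted levels (median -0.61). The groups did not overlap for 4 of them, where 19.8% of genes at this level were lower without overlap. Collagens outside this list went both ways, with COL5A2 higher (0.93) and COL12A1 and COL6A1 lower (-1.44 and -0.63). COL3A1, a fibrillar collagen, was at 295 and 159 CPM in iKD2 Dox- and 504 and 471 CPM in iSCR Dox+ (-1.10, SE 0.29, edgeR adjusted p = 0.648). It had an adjusted p under 0.05 in 5 of 17 alternatives. SPARC, a collagen-binding matrix protein, was at 121 and 95.4 against 191 and 172 CPM (-0.75, SE 0.25). VIM (vimentin) and FN1 (fibronectin) overlapped between groups, and the summed level of the list was 1982 and 1949 CPM against 3068 and 2214 CPM, so that iSCR Dox+ a stood apart more than iSCR Dox+ b. The median of the list was -0.34 without iKD2 Dox- b.

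The 4 markers of amnion and surface ectoderm at this level were lower without overlap (median -0.77), where 19.8% of all genes at this level were. The median of the list ranged from -0.88 to -0.73 over the alternatives. The interval of the fold change lay within 2-fold for only 1 of the 4 markers. Among them MUC16, a cell-surface mucin, was at 712 and 926 CPM against 1357 and 1060 CPM, ANXA1, a membrane-binding annexin, at 147 and 87.0 against 198 and 252 CPM, and DSC3, a desmosomal cadherin, at 54.1 and 33.8 against 70.7 and 118 CPM. In iKD2 Dox+ the same 3 genes were over every control library, from 2458 to 3030 CPM for MUC16. For DSC3 the margin was narrow, with iKD2 Dox+ b at 119.7 CPM and iSCR Dox+ b at 118.3 CPM. Of 7 ductal and simple epithelial markers 6 were lower (median -0.33), with none free of overlap. The median was 0.08 without iSCR Dox+ a and -0.08 without iKD2 Dox- c, so that the direction of this list rested on 1 library. KRT8, a keratin of simple epithelia, was at 776 and 519 against 1178 and 764 CPM (-0.58, SE 0.22, edgeR adjusted p = 0.826). Acinar markers (12 genes, 0 at 50 CPM or more) summed to between 9.93 and 20.9 CPM in the 4 libraries, and CTRB2, CELA3A, AMY2A, PNLIP and RBPJL were at 0 in each. Pluripotency markers (10 genes, 0 at 50 CPM or more) summed to between 52.8 and 112 CPM.

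Immediate early genes, which neurons and endocrine cells switch on within minutes of a stimulus and which cell dissociation and sorting are known to induce, had lower fitted levels in iKD2 Dox- throughout. Of 28 genes listed 23 reached 50 CPM, and all 23 had a negative log2 fold change (median -0.41, from -1.16 to -0.02). The groups did not overlap for 16 of the 23, where 19.8% of genes at this level were lower without overlap, and 9 had an unadjusted p under 0.05, where 3.77% of genes did in that direction. None passed the adjusted threshold. IER3 was at 0 in all 4 libraries. The summed level of the list was 10080 and 11310 CPM in iKD2 Dox- against 13950 and 12620 CPM in iSCR Dox+. The median lay between -0.44 and -0.35 in all 17 alternatives. The number of lower genes was 19 without iSCR Dox+ a, and the number at an unadjusted p under 0.05 was 3 without iKD2 Dox- b, 4 without iKD2 Dox- c, 4 without iSCR Dox+ a and 10 without iSCR Dox+ b.

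Of the 9 members at an unadjusted p under 0.05, NR4A3 and NR4A2, orphan nuclear receptors of the NR4A family, had the largest differences (-1.16 and -0.99). That of NR4A1, of the same family, was smaller (-0.58), behind KLF4 (-0.97) and EGR2 (-0.85). NR4A3 (chromosome 9, 99821855 to 99866891) stood at 62.3 and 85.7 CPM in iKD2 Dox- against 166 and 164 CPM in iSCR Dox+ (-1.16, SE 0.31, edgeR adjusted p = 0.637). NR4A1 was at 336 and 395 against 535 and 555 CPM, and NR4A2 at 33.3 and 42.2 against 82.3 and 67.6 CPM. None of the 3 overlapped between the groups. The zinc-finger factors EGR1 (1892 and 2069 against 2611 and 2422 CPM), EGR2 (79.1 and 46.9 against 142 and 85.1 CPM) and KLF4 (48.7 and 37.1 against 76.8 and 91.6 CPM) showed the same order.

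FOSB, a partner of JUN in the AP-1 dimer, was at 461 and 659 against 761 and 926 CPM (-0.59, SE 0.22). FOS and JUN, the defining AP-1 pair, overlapped between the groups (-0.24, SE 0.17 and -0.13, SE 0.16). ZFP36, which speeds the decay of AU-rich mRNAs, was at 183 and 212 against 330 and 295 CPM (-0.66, SE 0.24), and CCN2, a matrix-associated growth factor, at 110 and 96.4 against 176 and 162 CPM. The iKD2 Dox+ mean was above both iKD2 Dox- libraries for 21 of the 23 genes and closer to the mean of iSCR Dox+ than to that of iKD2 Dox- for 20. NR4A3 was at 136, 160 and 174 CPM in iKD2 Dox+. For 8 of the 23 genes the iKD2 Dox+ mean was above both iSCR Dox+ libraries. These levels include the library labelled iKD2 Dox+ c. The line and the induced shRNA differ between iKD2 Dox+ and iSCR Dox+, and the cause of this order was not tested.

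**Figure D4:**
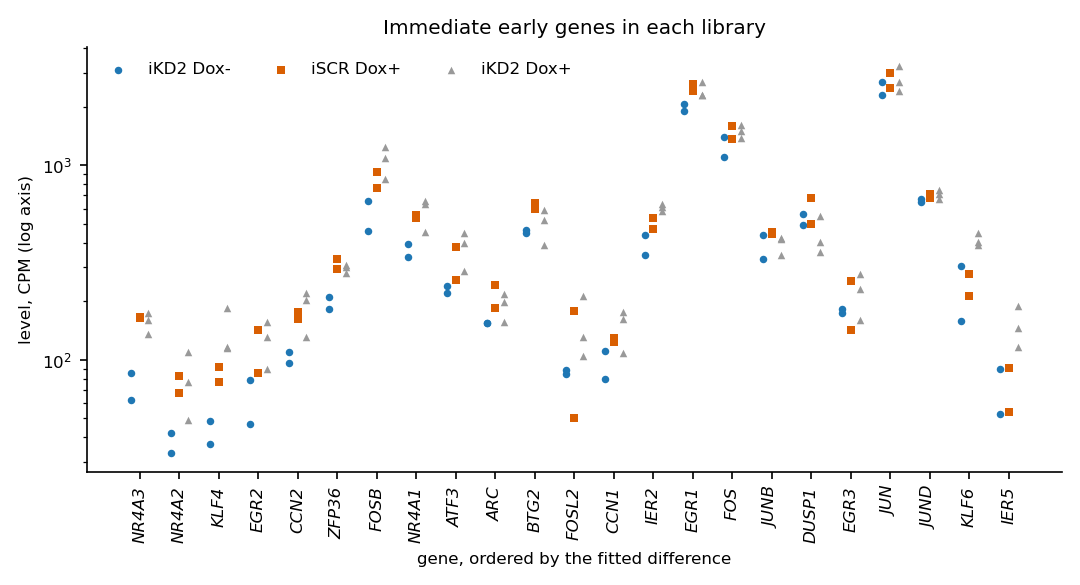
Level in CPM (log axis) of the 23 immediate early genes at 50 CPM or more in each of the 7 libraries, ordered by the fitted difference between iKD2 Dox- (blue circles) and iSCR Dox+ (orange squares), with iKD2 Dox+ (grey triangles) beside them. From NR4A3 at the left, 16 genes have both blue circles below both orange squares, while FOS, JUN, DUSP1, EGR3, FOSL2, KLF6 and IER5 overlap.

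Promoter sequence is shown for 2 of these genes and for PCSK1, which went the other way, because many immediate early genes are known to carry the cAMP response element, whose core is TGACG. The motif was chosen after the differences were seen. Windows of 300 bases, from 250 before to 50 after the start of the gene, are those of RefSeq on GRCh38.p14, read 5′ to 3′ on the strand of the gene, with TGACG or its reverse complement CGTCA in capitals.
NR4A3 (chr9:99821635-99821934, plus strand): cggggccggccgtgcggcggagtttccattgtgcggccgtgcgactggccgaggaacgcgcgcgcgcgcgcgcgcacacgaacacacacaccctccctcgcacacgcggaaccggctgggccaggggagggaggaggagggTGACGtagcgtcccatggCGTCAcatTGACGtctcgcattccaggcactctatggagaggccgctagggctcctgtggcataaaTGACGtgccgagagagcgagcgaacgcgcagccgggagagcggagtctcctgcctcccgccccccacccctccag
EGR1 (chr5:138465229-138465528, plus strand): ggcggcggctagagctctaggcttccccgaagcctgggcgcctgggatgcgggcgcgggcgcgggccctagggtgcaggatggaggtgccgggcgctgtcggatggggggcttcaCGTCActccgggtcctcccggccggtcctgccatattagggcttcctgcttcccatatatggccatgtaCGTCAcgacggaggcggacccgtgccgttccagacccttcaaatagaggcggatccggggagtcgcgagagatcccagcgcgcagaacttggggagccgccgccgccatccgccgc
PCSK1 (chr5:96433199-96433498, minus strand): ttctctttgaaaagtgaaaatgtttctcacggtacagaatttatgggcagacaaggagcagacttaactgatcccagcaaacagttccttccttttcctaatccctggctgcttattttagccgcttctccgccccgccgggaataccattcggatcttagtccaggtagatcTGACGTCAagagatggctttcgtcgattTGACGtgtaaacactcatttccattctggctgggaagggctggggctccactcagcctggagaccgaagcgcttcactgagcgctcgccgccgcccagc
The NR4A3 window held 4 matches and the EGR1 window 2. The PCSK1 window held 3, of which 2 overlap in the full palindrome. Where a gene had several windows, the window with the most matches was shown and was used for the shares of genes. The share over all windows counts each window singly and is not on that basis. At least 1 match was present in 24.6% of all 35116 windows, and in 44.5% of the 3343 genes at 50 CPM or more that had a window. It was present in 13 of 19 immediate early genes with a window (68.4%), in 49.6% of the genes at an unadjusted p under 0.05 that were lower in iKD2 Dox-, and in 45.0% of those that were higher. A match is a run of letters in this window and not a shown binding site.

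Mitochondrially encoded mRNAs mostly differed little, while intervals for nuclear genes of mitochondria were wider. Of 12 mitochondrially encoded mRNAs at this level, 5 were higher and 7 lower (median -0.11), and for 11 the 95% interval lay within 2-fold. MT-ND1, a subunit of complex I, was at 1948 and 1994 CPM against 2840 and 2378 CPM (-0.40, SE 0.15, edgeR adjusted p = 0.826). MT-CO1, MT-ND4 and MT-CYB had values of -0.06, 0.06 and 0.18. Nuclear respiratory chain subunits (28 genes, 14 higher and 14 lower, median 0.00) and mitochondrial chaperones and proteases (8 genes, median 0.12) gave 0 genes at an unadjusted p under 0.05. The 95% interval lay within 2-fold for 7 of the 28 and 4 of the 8. For the others a difference of that size was not excluded.

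The integrated stress response list had 8 genes at this level, 6 of them lower (median -0.35, and -0.18 without iSCR Dox+ a). ATF4, its central transcription factor, was at 212 and 166 CPM in iKD2 Dox- and 425 and 318 CPM in iSCR Dox+ (-0.97, SE 0.26, edgeR adjusted p = 0.637). Its iKD2 Dox+ libraries, at 242, 235 and 218 CPM, were below both iSCR Dox+ libraries as well. Other members of the list were not below an unadjusted p of 0.05: SLC3A2, an amino acid transporter chain, was at 116 and 144 against 214 and 157 CPM, and PPP1R15A, which reverses the response, at 277 and 332 against 377 and 296 CPM. Endoplasmic reticulum chaperones gave a median of -0.09 over 13 genes, 11 of them with an interval within 2-fold.

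Glycolysis and hypoxia genes were lower for 20 of 25 (median -0.24), 6 of them without overlap, where 19.8% of all genes at this level were lower without overlap, and 1 had an unadjusted p under 0.05. The median was -0.04 without iKD2 Dox- b. PFKP, the platelet form of phosphofructokinase, was at 168 and 218 CPM against 292 and 394 CPM (-0.83, SE 0.27, edgeR adjusted p = 0.826). ENO1 (enolase) was at 607 and 749 against 887 and 863 CPM, and GAPDH overlapped, at 1106 and 1416 against 1306 and 1487 CPM. Cytoplasmic ribosomal protein genes were lower for 55 of 75 (median -0.16, and -0.07 without iSCR Dox+ a), 24 without overlap, with 1 at an unadjusted p under 0.05, RPL23A (231 and 307 against 458 and 352 CPM). Most of these genes are short, with a median transcript of 1820 bases, and values moved with length over all genes at this level. The median was -0.08 in the 1034 genes with the shortest transcripts and -0.01 in the 1034 with the longest, and 59.1% and 50.9% of genes were lower. The part of transcript length in these lists was not tested.

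**Figure D5:**
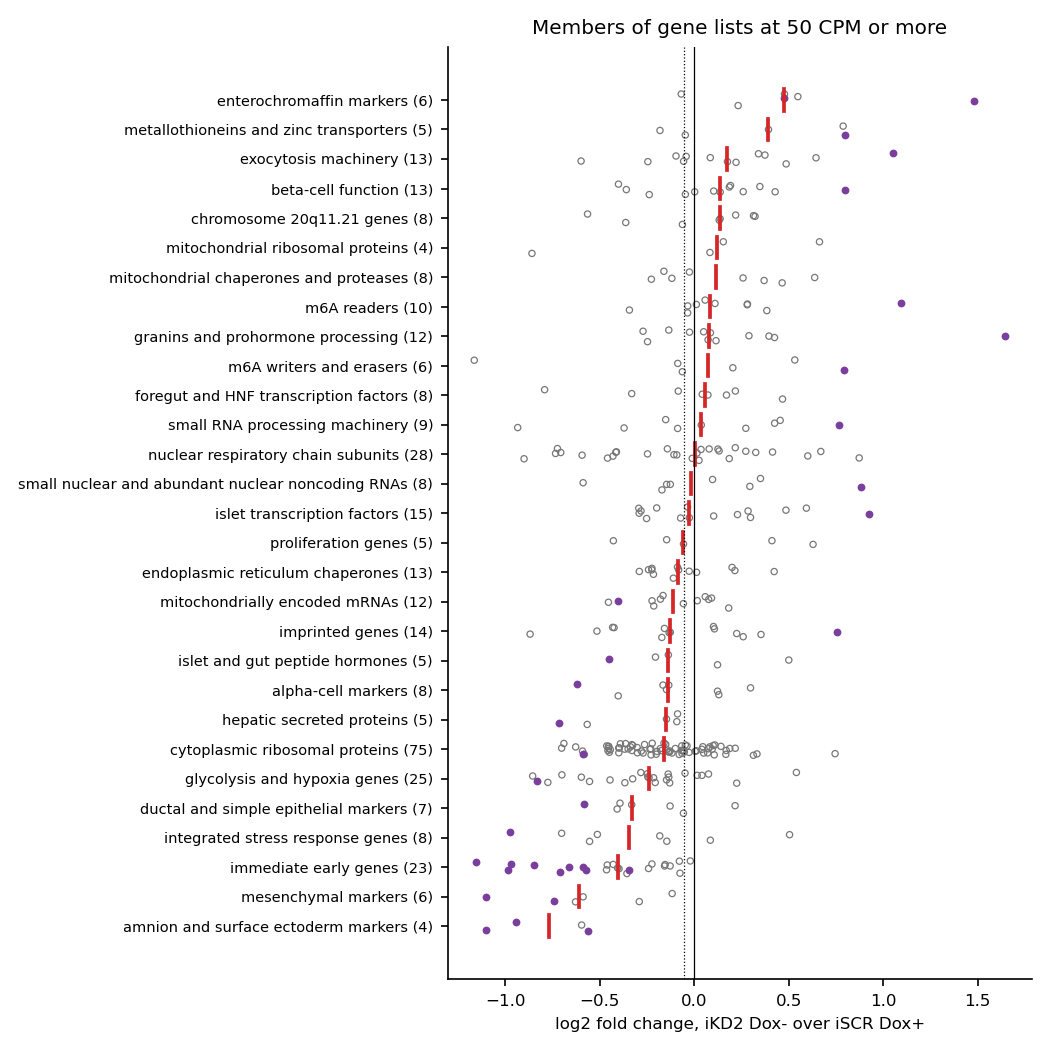
Log2 fold change of iKD2 Dox- over iSCR Dox+ for the members at 50 CPM or more of gene lists with at least 4 such members (number in brackets), with the median of each list in red, genes at an unadjusted p under 0.05 filled, and the median of all 4239 genes dotted. Medians run from -0.77 for amnion and surface ectoderm markers to 0.48 for enterochromaffin markers, and immediate early genes are the longest list with all members below 0.

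Genes that act on m6A did not stand apart as a group. Writers and erasers gave a median of 0.07 over 6 genes and readers 0.08 over 10. ALKBH5, an m6A demethylase, was at 204 and 246 CPM against 74.4 and 185 CPM (0.79, SE 0.36), and YTHDF2, a reader that promotes decay of marked mRNA, at 98.0 and 127 against 56.7 and 48.6 CPM (1.10, SE 0.36). Both were higher without overlap. Each had an edgeR adjusted p of 0.826. AGO1, an Argonaute protein that holds small RNAs, was higher as well (131 and 119 against 56.5 and 91.0 CPM), while the list of small RNA machinery as a whole gave a median of 0.04 over 9 genes. SCARNA2, a small Cajal body RNA, was at 173 and 120 against 59.4 and 99.8 CPM (0.88, SE 0.37), and its counts were not whole. Of 28 interferon response and RNA sensing genes 3 reached 50 CPM, and 0 had an unadjusted p under 0.05.

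Line differences can also follow chromosomes or imprints. Medians over the autosomes ran from -0.16 on chromosome 18 (76 genes) to 0.11 on chromosome 21 (48 genes). Genes of 20q11.21, a region that pluripotent lines are known to gain in culture, gave a median of 0.13 over 8 genes, with 5 higher and 3 lower. Imprinted genes gave a median of -0.13 over 14. RTL1, a paternally expressed gene of the chromosome 14 imprinted cluster, was at 204 and 189 CPM against 135 and 97.3 CPM (0.75, SE 0.32, edgeR adjusted p = 0.826), and IGF2, the gene with the highest mean of all at 27897 CPM, had a value of -0.17.

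The largest differences among all genes at this level, members of the lists included, were found at low levels. Of the 282 genes at an unadjusted p under 0.05, 274 also had no overlap between the groups, and the 12 lowest and 12 highest of these with a symbol were taken. Their means ran from 51.9 to 138 CPM. Lowest were RGPD6, ANKRD28, NAXD, LAPTM4A, MLYCD, CD55, THADA, RIT1, SUSD1, WDFY2, PCSK5 and CLUH, from -2.59 to -1.56. ANKRD28, a regulatory subunit of protein phosphatase 6, was at 27.3 and 24.5 CPM in iKD2 Dox- and 147 and 77.5 CPM in iSCR Dox+ (-2.12, SE 0.52). MLYCD, the decarboxylase of malonyl-CoA, was at 24.5 and 48.6 against 114 and 117 CPM (-1.66, SE 0.44). LAPTM4A, a lysosomal membrane protein, was at 24.7 and 28.4 against 96.7 and 70.8 CPM.

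CD55, which shields cells from complement, was at 31.3 and 19.9 against 72.0 and 84.6 CPM (-1.61, SE 0.39), and PCSK5, another proprotein convertase, at 66.2 and 52.0 against 110 and 240 CPM. NAXD, a repair enzyme for damaged NADH, and CLUH, which binds mRNAs of mitochondrial proteins, rested mainly on iSCR Dox+ a, at 127 and 150 CPM there against 34.7 and 42.1 CPM in iSCR Dox+ b. RGPD6 belongs to a family of near-identical copies and its counts were not whole, so that its values (18.95 and 20.2 against 48.4 and 188 CPM) are uncertain.

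Highest were ZBED6, NOP53, MRTFA, PCSK1, PRR36, HMGB3, GOLGA2P7, TSPAN5, CBLN1, PCBP4, SH3PXD2B and SHPRH, from 2.51 to 1.41. NOP53, a ribosome biogenesis factor, was at 111 and 117 CPM against 32.1 and 23.7 CPM (2.02, SE 0.46, edgeR adjusted p = 0.413). MRTFA, a coactivator of serum response factor, was at 85.5 and 102 against 17.1 and 41.0 CPM (1.69, SE 0.49). SH3PXD2B, an adaptor of podosomes, was at 143 and 112 against 41.0 and 53.04 CPM, and TSPAN5, a tetraspanin, at 87.8 and 88.6 against 38.5 and 21.9 CPM. In these 4 genes the lower iKD2 Dox- library was over 2 times the level of the higher iSCR Dox+ library.

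ZBED6 lies within ZC3H11A on chromosome 1 (203795654 to 203854999), and the pair moved in opposite directions. ZBED6, a transposon-derived repressor, was at 222 and 247 CPM in iKD2 Dox- and 65.7 and 16.5 CPM in iSCR Dox+. ZC3H11A, an mRNA export factor, was at 96.8 and 87.4 against 193 and 297 CPM. Their sum was 319 and 334 against 259 and 313 CPM, and both had counts that were not whole, so that how reads were split between them is uncertain. GOLGA2P7, a pseudogene of a repeated family, is uncertain for the same reason.

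Under 50 CPM, 3 of the 22926 genes tested passed the adjusted threshold (0.0131%): ENSG00000282034 (chromosome 16, 30704067 to 30745169), ENSG00000284933 and ENSG00000288198, at 46.2 and 34.4, 24.5 and 21.8, and 43.0 and 35.0 CPM in iKD2 Dox-. All 3 were at 0 after rounding in both iSCR Dox+ libraries. Against the 3 counts per library that a count of 0 allows, they were at least 199-fold, 114-fold and 193-fold higher, a bound that covers counting error only. In iKD2 Dox+ (a, b, c) ENSG00000282034 was at 14.3, 32.1 and 89.8 CPM and ENSG00000284933 at 19.7, 39.6 and 4.86 CPM. ENSG00000288198 was at 19.2, 63.5 and 65.9 CPM there, so that all 3 genes were present in every iKD2 Dox+ library. Their counts were not whole, and 0 genes passed when only the 4 libraries compared were fitted (228 at 50 CPM or more at an unadjusted p under 0.05).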

How the data were processed

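Paired-end RNA-seq libraries had been prepared from total RNA with a kit that keeps strand. The authors cleaned reads with fastp, estimated transcript abundance with Kallisto and summed it per gene with tximport, and deposited these estimated counts with no scaling for depth or length. Versions, genome build, annotation and strand setting are not given in the sources used here. Kallisto divides reads between genes that share sequence, so counts need not be whole.

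Counts were rounded, filtered with filterByExpr by group (22926 genes kept of 66025 IDs), scaled by TMM and fitted with edgeR 4.0.16 in R 4.3.3 (quasi-likelihood, robust), with all 7 libraries in 3 groups as the only term. The Benjamini-Hochberg adjustment ran over all genes tested. Levels are TMM-scaled CPM, and fold changes are iKD2 Dox- over iSCR Dox+. With 2 libraries a group, no exact permutation test of a single value can reach 0.05. Spread over genes used log2 (CPM + 0.5). Scripts were tested on simulated data. Symbols came from a table of gene IDs (59369 matched), and coordinates from GENCODE 29 on GRCh38 by ID (57402 matched).

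The genes named are those past the adjusted threshold, the 12 genes with the highest and the 12 with the lowest log2 fold change among those with a symbol at 50 CPM or more, without overlap and at an unadjusted p under 0.05, list members meeting the same conditions, METTL14 and INS, with members of lists described whole. EEF1A1, MAP1B, ENSG00000276781, ZC3H11A, COL5A2, COL12A1, COL6A1, IAPP, G6PC2 and other list members named as examples were chosen after their values were seen. Members and the 34 lists were chosen with earlier results of these data known. Alternatives were other scaling, filters and tools (DESeq2 1.42.0, limma 3.58.1), only the 4 libraries, a replicate block, each library left out, counts per symbol, and other CPM limits.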

Additional observations from a re-analysis of the deposited data

How the results depend on the processing

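Limits. Only 2 libraries stand for each group, and fits that leave out a control library rest its group on 1 library, assumed to vary like the others. Genes called over all those tested (3) numbered 32 with no filter, 1 at a mean of 5 CPM or more, 0 when only genes at 50 CPM or more or only the 4 libraries were fitted, 428 with DESeq2, 2 with limma voom, 8 with the replicate block, and from 2 to 445 without 1 library. At 50 CPM or more, adjusted calls (0) numbered 8 with no filter, 66 with DESeq2, 2 with limma voom, 3 with the replicate block, 1 at a 20 CPM limit, and 0 to 94 without 1 library. Unadjusted calls (282) numbered 472 with DESeq2, 505 and 128 at limits of 20 and 100 CPM, and 188 to 648 without 1 library. Calls under the criterion of the study (267) numbered 411, 490 and 113 under the same settings, and 181 to 630 without 1 library. The fits without filter, with other limits or without a library test other genes or samples, and for the other settings the cause was not tested. For immediate early genes, the median ranged from -0.44 to -0.35, the number lower from 19 to 23 and the number at an unadjusted p under 0.05 from 3 to 10 without 1 library. METTL14 reversed to 0.21 without iKD2 Dox- c and ranged down to -0.60 with another library left out. None of the other genes selected by rule reversed (57 were selected, METTL14 included). Genes given only as list members or examples, such as GCG and SST, were not checked for this. Reversals among them are not excluded, because the libraries of several overlapped between the groups. Medians of 30 other lists moved by more than the spread between replicates in 45 of 510 cases, all with a library compared left out or the replicate block. Without 1 of the 4 libraries compared, the median changed sign for 14 of 31 lists, among them hormones, islet transcription factors, α-cell markers and m6A writers and erasers.

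The groups compared share only the letter b. Deviations of libraries with the same letter correlated across genes at -0.00953 to 0.0579, all under 0.1. In a group of 2 libraries the deviations mirror each other, so these values cannot decide whether a letter marks a shared batch. The 2 libraries lettered a detected the fewest genes (19652 in iSCR Dox+, 20252 in iKD2 Dox+). The main fit held no term for the letter, and an effect of it was not tested. The replicate block was fitted over all 7 libraries as an alternative. It gave 264 unadjusted calls at 50 CPM or more and moved the medians of 9 lists.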

Other observations

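NEUROG3, the transcription factor that starts endocrine differentiation, was chosen after its values were seen. It was under the 50 CPM line, with 24.3 and 24.0 CPM in the iKD2 Dox- libraries against 1.08 and 1.27 CPM in those of iSCR Dox+, and its counts were whole in every library. The log2 fold change was 4.35 (SE 1.99, 95% interval 0.22 to 8.48), with an edgeR adjusted p of 0.826. The iKD2 Dox+ libraries (a, b, c) held 0, 5.87 and 4.86 CPM.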
